A study of Mus musculus with 6 samples.

Results

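The 9 genes described here encode intermediate filament proteins and were measured in mouse kidney glomeruli. They are the keratin genes Krt7, Krt8, Krt18, Krt19, Krt20, Krt23 and Krt80, the vimentin gene Vim and the nestin gene Nes. They were chosen by name and matched by symbol, and all 9 had a row among the 24035 rows of the deposited table that carry a gene symbol. RNA was sequenced from glomeruli of FVB/N mice, pulled from digested kidneys with a magnet after perfusion with iron oxide. The 3 control libraries came from Klf4 fl/fl mice and the 3 knockout libraries from Podocin-Cre Klf4 fl/fl mice, in which a recombinase under the podocin promoter acts in podocytes, the epithelial cells around the glomerular capillaries. All libraries therefore carried the floxed alleles of Klf4, a zinc-finger transcription factor, and only the knockout libraries carried Cre, so Cre and the loss of Klf4 cannot be told apart. The labels give no age or sex and do not say that each library is 1 animal, so the p-values rest on a spread among libraries that may be technical in part.

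Intermediate filaments are the rope-like part of the cytoskeleton. Keratins form them in epithelia and only as pairs of an acidic type I with a basic type II chain. Krt8 (type II) with Krt18 (type I) is the basic pair of simple epithelia, while Krt7 (type II) and Krt19 (type I) are added in ducts. Vimentin is a type III protein of mesenchymal, endothelial and blood cells and also of podocytes, and nestin is a large protein that joins vimentin filaments and marks podocytes in the mature glomerulus.

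Values are RPKM, reads divided by gene length and by the library's counted reads, which can be compared between genes. The counted reads of a library, recovered from the values, were 38936993 to 58272424. Glomerular markers were high in the controls, with the slit diaphragm gene Nphs1 at 238 to 412 RPKM, the endothelial gene Pecam1 at 174 to 275 RPKM and the mesangial gene Pdgfrb at 141 to 209 RPKM. Tubule RNA was present too, since Lrp2 of the proximal tubule stood at 28.7 to 50.3 RPKM and Aqp2 of the collecting duct at 24.0 to 123 RPKM. In whole glomeruli, fewer cells of a type and less RNA per cell cannot be told apart.

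Of the 9 genes, 4 were higher in knockout glomeruli, and these were Krt8, Krt18, Krt19 and Krt20. None was lower (limma, adjusted p under 0.05), and Krt7, Krt23, Krt80, Vim and Nes did not pass. Across the 13912 genes tested, those with a mean of at least 0.5 RPKM, 9.98% were called higher and 3.48% lower. That split was 1389 against 484 genes, but 1042 against 755 with TMM scaling and 849 against 798 with quantile normalization. The median log2 change of all genes tested was 0.097, and it was -0.027 and -0.048 under those scalings, so small changes are read relative to it. All 9 genes passed this filter. Krt19, Krt20 and Krt23 did so through the knockout libraries alone, since their control means were below 0.5 RPKM, and for these 3 genes a difference was a condition of being tested.

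**Figure D1:**
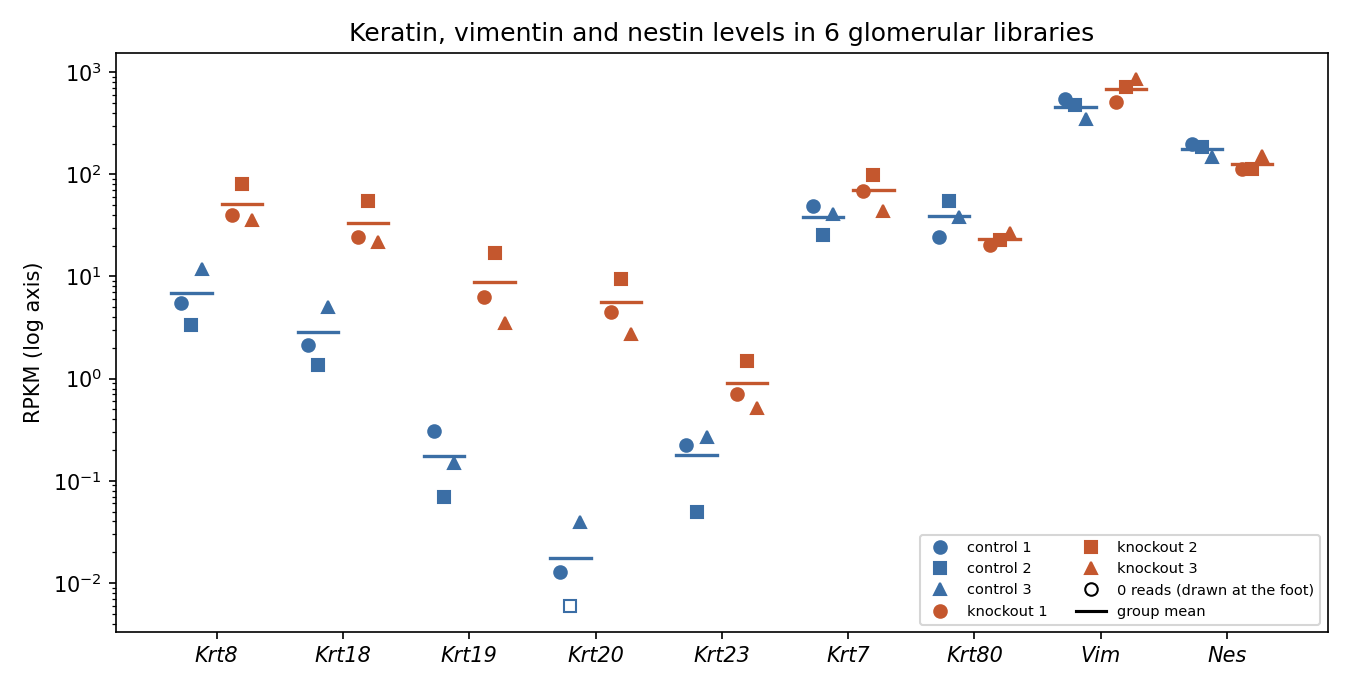
RPKM on a log axis for each of the 9 genes, with 1 point per library and a bar at the mean of 3 libraries; the open square marks 0 reads of Krt20 in control replicate 2. Krt8, Krt18, Krt19, Krt20 and Krt23 do not overlap between the groups, and Krt7, Krt80, Vim and Nes do.

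Values per library follow in the order of replicates 1, 2 and 3 throughout. Krt8 had 5.47, 3.37 and 11.8 RPKM in controls, against 39.9, 80.0 and 35.5 RPKM in knockouts. Every knockout library lay above every control library. The means were 6.86 ± 4.36 and 51.8 ± 24.5 RPKM (SD, n = 3 libraries per group), a 7.545-fold rise. Its log2 change was 2.90 (95% interval 1.84 to 3.96, SE 0.45, limma adjusted p = 0.00936). Log2 changes are differences between group means of log2(RPKM + 0.5), knockout less control, a scale that understates shifts in low genes. Folds are taken between mean RPKM.

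Its partner Krt18 was at 2.13, 1.35 and 5.03 RPKM in controls and at 24.4, 54.5 and 21.7 RPKM in knockouts. The order of the libraries was the same as for Krt8, highest in control replicate 3 and in knockout replicate 2, with no overlap between the groups. Krt18 rose 11.8-fold (log2 change 3.38, SE 0.47, limma adjusted p = 0.00639). The ratio of Krt8 to Krt18 RPKM was 2.57, 2.51 and 2.34 in the controls and 1.63, 1.47 and 1.64 in the knockouts. It was thus lower in each knockout library, with an exact two-sided permutation p of 0.1, the smallest that 3 against 3 libraries allow.

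Krt19, a small type I keratin of ducts, had 0.304, 0.0693 and 0.1495 RPKM in controls and 6.35, 16.8 and 3.50 RPKM in knockouts. These are 17, 5 and 8 reads against 395, 942 and 280 reads, so the control level rested on few reads. The mean rose 50.98-fold, with a log2 change of 3.55 (SE 0.49, limma adjusted p = 0.00621).

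Krt20, a type I keratin of gut and urothelium that also appears in injured kidney tubules, was nearly absent from controls. It had 1, 0 and 3 reads in controls, against 396, 750 and 311 reads in knockouts. A count of 0 in control replicate 2 allows up to 0.0296 RPKM, taken as 3 reads, while the knockout libraries stood at 4.53, 9.54 and 2.77 RPKM. Over the pooled reads Krt20 was 334-fold higher (exact 95% interval 130 to 1226, for counting error only), and its log2 change was 3.41 (SE 0.38, limma adjusted p = 0.00330).

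Krt23, another type I keratin, did not pass. It had 0.224, 0.0495 and 0.267 RPKM in controls and 0.704, 1.48 and 0.513 RPKM in knockouts, from 14, 4 and 16 control reads. The groups did not overlap, but the log2 change was 1.00 (SE 0.29, 95% interval 0.31 to 1.68, limma adjusted p = 0.0653). It passed without knockout replicate 3 (adjusted p = 0.0441). Among the 9 genes, 5 had no overlap between the groups and all 5 were higher in the knockouts, where 35.1% of all genes tested had no overlap in either direction. Krt19, Krt20 and Krt23 are among these 5. They passed the filter through the knockout libraries alone, so the count is not support for a rise in them.

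**Figure D2:**
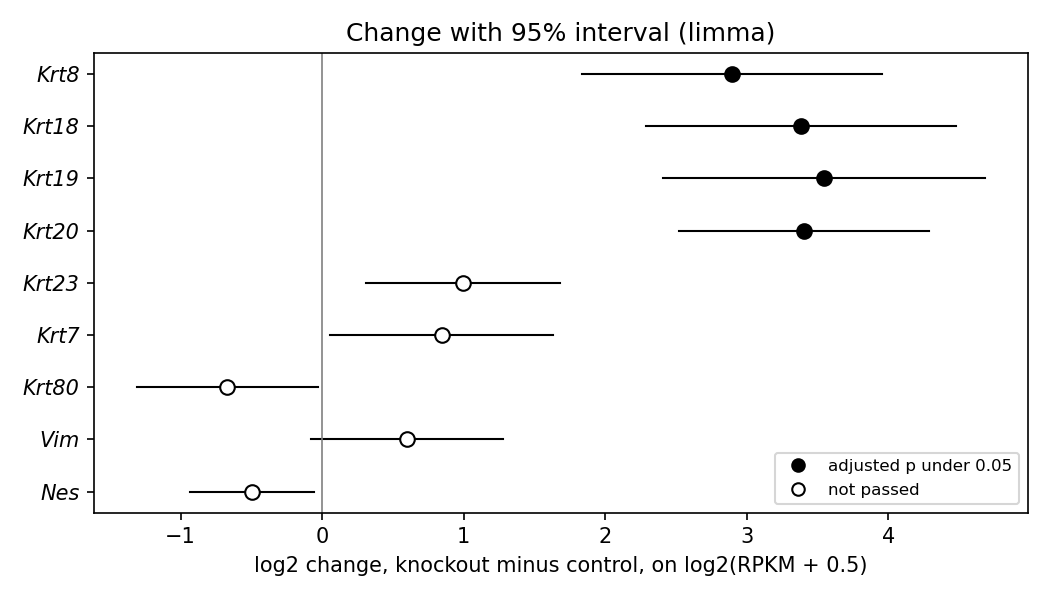
Log2 change between groups for each gene with its 95% interval, which is not adjusted for the number of genes tested; filled points have an adjusted p under 0.05. The 4 filled points lie between 2.90 and 3.55, and the 5 open points between -0.67 and 1.00.

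Krt7 and Krt80 were the most abundant of the 7 keratins in control glomeruli. Krt7 had 49.4, 25.3 and 40.9 RPKM in controls and 68.3, 99.6 and 44.2 RPKM in knockouts. Knockout replicate 3 lay below control replicate 1, and the log2 change of 0.84 did not pass (SE 0.34, 95% interval 0.057 to 1.63, limma adjusted p = 0.141). Krt80, a type II keratin, had 24.3, 54.5 and 37.9 RPKM in controls and 20.2, 22.9 and 26.4 RPKM in knockouts. Control replicate 1 fell within the knockout range, and the log2 change was -0.67 (SE 0.27, 95% interval -1.31 to -0.029, limma adjusted p = 0.149). Without control replicate 1 it was -0.97 and passed (adjusted p = 0.0423).

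The make-up of keratin RNA differed between the groups. Krt7 and Krt80 together held 90.1%, 94.3% and 82.1% of the RPKM summed over the 7 keratins in controls, and 53.9%, 43.0% and 52.5% in knockouts. The share of the Krt8 and Krt18 pair was 5.58% to 17.5% in controls and 39.1% to 47.2% in knockouts. Krt19, Krt20 and Krt23 made up 0.140% to 0.662% and 5.04% to 9.78%. The sum itself was 81.8, 84.6 and 96.0 RPKM in controls and 164, 285 and 134.5 RPKM in knockouts.

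Type I chains were scarce beside type II chains in control RNA. The 4 type I genes summed to 2.67, 1.47 and 5.48 RPKM and the 3 type II genes to 79.1, 83.1 and 90.5 RPKM in controls. In knockouts the type I sums were 36.0, 82.4 and 28.5 RPKM and the type II sums 128, 202.5 and 106 RPKM. The ratio of type I to type II was 0.0373 ± 0.0217 in controls and 0.319 ± 0.0766 in knockouts (SD, n = 3 libraries per group), with no overlap and an exact two-sided permutation p of 0.1, again the smallest possible. With every keratin row of the table counted, the control ratio was 0.0748, mostly through Krt10, a type I keratin of epidermis at 2.67 ± 0.280 RPKM in controls and 2.63 ± 0.553 RPKM in knockouts (log2 change -0.029, limma adjusted p = 0.934; its sign turned without control replicate 1 or knockout replicate 1 or 3).

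**Figure D3:**
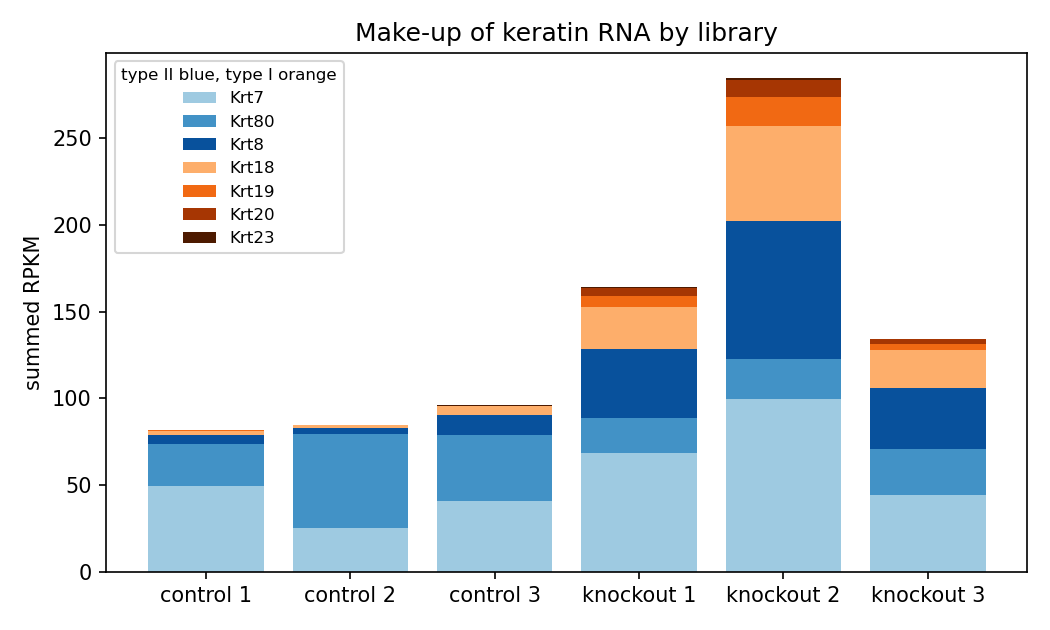
Stacked bars of RPKM for the 7 keratins in each library, from 0, with type II genes in blue and type I genes in orange. Control bars reach 81.8 to 96.0 RPKM and are mostly Krt7 and Krt80, while knockout bars reach 134.5 to 285 RPKM and hold a larger part of Krt8 and Krt18.

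Other keratins were low or not detected. Of 45 further keratin rows, 21 were at 0 in every library and Krt10 alone had a mean of at least 0.5 RPKM. Krt5, Krt14 and Krt15, keratins of basal epithelial cells, were too low to test and are named here after their values were seen. Krt5, the basal type II keratin, had 0.0174 to 0.0449 RPKM in controls and 0.323, 1.52 and 0.306 RPKM in knockouts. Krt15, a basal type I keratin, had 0.0299 to 0.0858 RPKM in controls and 0.154, 1.44 and 0.200 RPKM in knockouts. Krt14, the partner of Krt5, had 0.053, 0.355 and 0.021 RPKM in knockouts, from 4, 24 and 2 reads, and at most 0.0115 RPKM in controls.

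Vim was the most abundant of the 9 genes in both groups, above Nes in every library. It had 541, 481 and 344 RPKM in controls and 512, 713 and 852 RPKM in knockouts. Knockout replicate 1 lay within the control range, and the log2 change of 0.60 did not pass (SE 0.29, 95% interval -0.080 to 1.28, limma adjusted p = 0.212). Among knockouts it was highest in replicate 3 and lowest in replicate 1, as was Krt80 but none of the other 6 keratins. Tagln, a smooth muscle actin-binding gene, had the same order in knockouts, at 86.6, 179 and 235 RPKM. Its controls had 30.6, 37.7 and 18.2 RPKM and were highest in replicate 2, where Vim was highest in replicate 1. Acta2, Lmnb1, Lmna and Sync had that knockout order too, as did the cell cycle genes Mki67, Ccna2 and Cdc20, though not Mcm6. Summed cell cycle genes had it at 83.4, 124.5 and 128.5 RPKM, and summed fibroblast markers at 82.5, 123 and 125 RPKM. The order was thus not particular to filament or smooth muscle genes.

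Nes had 199, 184.5 and 147 RPKM in controls and 113.5, 112.5 and 151 RPKM in knockouts. Knockout replicate 3 lay just above control replicate 3, and the log2 change of -0.49 did not pass (SE 0.19, 95% interval -0.93 to -0.055, limma adjusted p = 0.126). Podocyte genes fell in the same libraries. Synpo, which encodes synaptopodin, had 298 to 375 RPKM in controls and 58.0 to 124 RPKM in knockouts, and Nphs1 had 35.2 to 118 RPKM in knockouts (log2 changes -1.96 and -2.08, limma adjusted p = 0.00698 and 0.0254). Nphs1 did not pass without control replicate 1 or 2 (adjusted p = 0.0761 and 0.0636) or with no filter (0.0531). Whether Nes differed from these genes was not tested. The ratio of Vim to Nes was 2.71, 2.61 and 2.34 in controls and 4.51, 6.34 and 5.63 in knockouts. It was higher in each knockout library, with an exact two-sided permutation p of 0.1, the smallest possible.

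The order of levels differed between the groups below Vim and Nes. In controls Vim came first, then Nes, then Krt80 and Krt7, whose ranges overlapped, then Krt8 and Krt18, whose ranges overlapped as well, then Krt23 and Krt19 with overlapping ranges, and Krt20 last. In knockouts Vim and Nes were followed by Krt7, Krt8, Krt18 and Krt80, each overlapping the next, then by Krt19 and Krt20, which overlapped, and by Krt23 below them.

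By position in the mm10 genome (GENCODE M21 annotation), the genes that rose and those that did not were not sorted by chromosome. Krt8 (chr15:101996698-102004482, minus strand) and Krt18 (chr15:102028180-102032027, plus strand) are 23.7 kb apart at the end of the type II cluster, and both rose. Krt80 (chr15:101347444-101370162, minus) and Krt7 (chr15:101411043-101430313, plus) are 40.9 kb apart in the same cluster, and neither passed. On chromosome 11 Krt20 (chr11:99428403-99438150, minus) rose and Krt23 (chr11:99477974-99493137, minus), 39.8 kb away, did not pass, while Krt19 (chr11:100140810-100148665, minus) rose. Vim lies on chromosome 2 (chr2:13573927-13582826, plus) and Nes on chromosome 3 (chr3:87971078-87980451, plus). The whole of Krt80 lies within the antisense gene Gm35853, Gm671 overlaps Krt7 on the other strand, and Gm36026 overlaps Krt8 on the other strand. The sources used here do not give the strand setting of the counting, and these 3 partners have no row in the table, so their reads and those of the keratins cannot be told apart.

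Promoter sequences of 7 of the 9 genes were matched by symbol in a RefSeq table (build GRCm38.p6), from 250 bases before to 50 after the start annotated there. That start can differ from the GENCODE positions above. The Krt7 window, chr15:101412153-101412452, lies wholly inside the gene as placed above. The 3 sequences below are shown because Krt8 and Krt18 are neighbours that rose together and Krt20 had the largest fold of the 9. Each is written 5′ to 3′ on the gene's strand, with matches to 6 motifs in capitals. Krt8 is chr15:102004293-102004592 (minus), Krt18 is chr15:102027966-102028265 (plus) and Krt20 is chr11:99438104-99438403 (minus).
Krt8: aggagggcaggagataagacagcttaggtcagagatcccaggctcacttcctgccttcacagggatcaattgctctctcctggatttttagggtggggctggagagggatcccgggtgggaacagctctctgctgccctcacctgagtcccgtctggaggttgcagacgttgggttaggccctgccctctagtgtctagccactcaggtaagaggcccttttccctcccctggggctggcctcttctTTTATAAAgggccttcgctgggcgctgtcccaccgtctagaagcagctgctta
Krt18: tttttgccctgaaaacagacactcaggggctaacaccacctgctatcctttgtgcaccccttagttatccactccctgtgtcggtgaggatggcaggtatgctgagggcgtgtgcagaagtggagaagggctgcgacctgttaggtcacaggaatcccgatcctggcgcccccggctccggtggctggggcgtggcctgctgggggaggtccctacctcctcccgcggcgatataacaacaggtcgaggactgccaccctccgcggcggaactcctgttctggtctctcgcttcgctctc
Krt20: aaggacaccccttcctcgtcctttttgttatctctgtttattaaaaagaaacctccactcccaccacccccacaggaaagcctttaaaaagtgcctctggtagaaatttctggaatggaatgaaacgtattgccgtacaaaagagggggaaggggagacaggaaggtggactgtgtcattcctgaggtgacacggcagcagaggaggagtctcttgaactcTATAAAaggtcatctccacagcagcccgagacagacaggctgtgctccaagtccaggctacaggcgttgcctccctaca

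The motifs were searched on both strands. TATAAA, the letters of the TATA box, was found in Krt8 and Krt20 among the 3, and also in Vim, while 13.6% of all 32851 promoters in the table hold it. In Krt8 the matches on the 2 strands overlap and begin at bases 248 and 250 of the window, and in Krt20 there is 1 match. Krt18 held none of the 6 motifs. GGGCGG, bound by SP factors, was found in Krt7 and Nes (35.7% of all promoters), and CCAAT in Vim (37.4%). The other 3 motifs were in none of the 7 windows. They were CACACCC, a box bound by KLF factors (7.95% of all promoters), TGANTCA of AP-1 (7.81%) and TTCNNNGAA of STAT factors (8.30%). No match says only that these letters are not in these windows.

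Among genes that join filaments to cell contacts, 7 of 15 tested were higher and none lower, with a median log2 change of 0.66, beside 0.097 over all genes tested. Dsg2, a desmosomal cadherin, had 0.756, 0.339 and 0.785 RPKM in controls and 4.52, 8.25 and 3.42 RPKM in knockouts (log2 change 2.33, SE 0.32, limma adjusted p = 0.00644). Dsp, which encodes desmoplakin, the plate protein that holds keratin at desmosomes, rose from 2.22 ± 0.278 to 6.79 ± 2.05 RPKM (limma adjusted p = 0.00916). Ppl, the linker periplakin, rose 5.86-fold, and Itgb4, the hemidesmosome integrin chain that anchors keratin to the basement membrane, rose 2.73-fold. Perp, Dsc2 and Itga6 were the other higher genes, named with Jup after their values were seen. Dsc2 passed the filter through the knockout libraries alone, so that a difference was a condition of its test. Jup, which encodes plakoglobin, did not pass, at 94.1 to 99.5 RPKM in controls and 90.8 to 109 RPKM in knockouts. Of 21 genes on the list, 6 were too low to test, and leaving out knockout replicate 2 left 4 higher genes.

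Of 14 other intermediate filament genes 7 were tested, with a median log2 change of 0.33. Lmnb1, which encodes lamin B1 of the nuclear lamina, was the 1 higher gene and none was lower. It went from 3.06, 3.48 and 3.23 RPKM in controls to 7.31, 10.9 and 12.6 RPKM in knockouts (log2 change 1.49, SE 0.21, limma adjusted p = 0.00641). Lmna, of lamins A and C, had a log2 change of 0.45 and did not pass (limma adjusted p = 0.0965). Des, which encodes desmin, the muscle-type filament of mesangial cells and of injured podocytes in rodents, had 99.8 to 126 RPKM in controls and 74.5 to 106 RPKM in knockouts (log2 change -0.37, limma adjusted p = 0.207). Sync, a desmin-binding filament gene, had a log2 change of 0.64 (limma adjusted p = 0.225).

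Markers of other cells moved in the same libraries. Collecting duct genes, from an epithelium that makes Krt7, Krt8, Krt18 and Krt19, summed over 14 genes to 226, 132 and 365 RPKM in controls, against 559.7, 679 and 265 RPKM in knockouts. This sum holds Gata3, which is also on the mesangial list. Gata3 had 41.8, 52.5 and 88.5 RPKM in controls and 30.9, 23.3 and 35.2 RPKM in knockouts. The sum put the control libraries in the order of Krt8 and Krt18. Among knockouts the sum was highest in replicate 2 and lowest in replicate 3, as were all the members except Krt80, Vim and Nes. The loop and distal tubule and tubule injury sums, given below, had the same order in both groups. The proximal tubule sum had it in controls only. The collecting duct sums overlapped between the groups. Aqp2 did not pass, at 71.3 ± 49.5 RPKM in controls and 201 ± 98.4 RPKM in knockouts (log2 change 1.63, limma adjusted p = 0.130). Tfcp2l1, a collecting duct transcription factor, was the 1 higher gene of 14. The count was 0 without control replicate 2 or knockout replicate 1 or 2, and 8 without knockout replicate 3. Tfcp2l1 also did not pass without control replicate 1 (adjusted p = 0.0702). Their part in the keratin result was not tested.

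Parietal epithelial markers, of the cells lining Bowman's capsule that also make simple keratins, summed over 9 genes to 144 to 181 RPKM in controls and 272 to 456 RPKM in knockouts, and 5 of 9 were higher. Most of the control sums was Cd9, at 94.7, 123 and 102 RPKM, which did not pass (limma adjusted p = 0.0930). Ncam1, on the same list, was lower in every knockout library and did not pass (limma adjusted p = 0.132). Cd9 and Ncam1 are named after their values were seen. Cldn1, the capsule claudin, was highest in knockout replicate 2, at 32.2, 69.1 and 47.8 RPKM against 5.68 to 9.53 RPKM in controls. The epithelial cadherin gene Cdh1 rose from 11.2 ± 4.65 to 39.6 ± 17.1 RPKM (log2 change 1.75, limma adjusted p = 0.0325), but did not pass without control replicate 1 or 2, without knockout replicate 1 or 2, or with no filter (adjusted p = 0.0622 to 0.124). Epcam, another epithelial adhesion gene, did not pass, at 11.5 ± 6.87 RPKM in controls and 36.0 ± 16.5 RPKM in knockouts (log2 change 1.66, limma adjusted p = 0.0641). Their part and that of the capsule cells in the keratin result were not tested.

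Podocyte markers summed to 3310 to 5915 RPKM in controls and 1158 to 2394 RPKM in knockouts, and 9 of 15 were lower. Without control replicate 1 or 2 that count was 4 or 5. Tubule injury markers, a list that holds Krt20 itself, summed to 126 to 230 RPKM in controls and 1650 to 4634 RPKM in knockouts, and 9 of 10 were higher. Among these 9, Krt20, Havcr1 and Sox9 passed the filter through the knockout libraries alone, Sox9 being named after its values were seen. For them a difference was a condition of the test. Proximal tubule markers summed to 1540 to 3512 and 1592 to 3421 RPKM, with 1 of 13 higher, and loop and distal tubule markers to 431.5 to 1147 and 919 to 2341 RPKM, with 1 of 9 higher.

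Leukocyte markers, from cells rich in vimentin, summed to 71.7 to 75.0 RPKM in controls and 546 to 1232 RPKM in knockouts, and 9 of 10 tested were higher (5 without knockout replicate 2). Most of the knockout sums was Cd74, at 315, 695 and 385 RPKM, and H2-Ab1, at 137, 269 and 159.5 RPKM. The defining gene Ptprc went from 1.71 ± 0.943 to 5.20 ± 1.79 RPKM (limma adjusted p = 0.0404). Ptprc did not pass with TMM scaling, quantile normalization, voom on recovered reads or no filter. It also did not pass without control replicate 1 or 3 or knockout replicate 2 or 3. Fibroblast markers summed to 62.4 to 70.2 and 82.5 to 125 RPKM, with 3 of 5 higher. Endothelial markers, of another vimentin-rich cell, summed to 2197 to 3117 and 1288 to 2116 RPKM, with none of 12 called. Mesangial markers summed to 1252 to 1797 and 927 to 1306 RPKM, with 2 higher and 3 lower of 11. All 12 cell cycle genes were higher, some of which passed the filter through the knockout libraries alone. Urothelial markers, from an epithelium that makes Krt20, summed to 2.04 to 2.43 and 4.39 to 8.75 RPKM. Of 10 urothelial genes 3 were tested and 1 was higher, Psca, at 0.591 ± 0.294 RPKM in controls and 2.53 ± 1.03 RPKM in knockouts (limma adjusted p = 0.0232). Psca did not pass without control replicate 1 or 2, without knockout replicate 2, or with quantile normalization (limma adjusted p = 0.0536 to 0.0808). Upk1b, Upk3a, Grhl3 and Krt5, too low to test and named after their values were seen, had every knockout library above every control library. For Upk1b this rested on 5, 4 and 3 reads in controls and 15, 14 and 12 reads in knockouts. The groups overlapped for Upk1a, Upk2, Upk3b, Trp63 and Krt13. Of all genes tested, 35.1% had no overlap in either direction. The defining gene Upk2 stayed at or below 0.140 RPKM. The part of these cells in the results for Vim, Nes and the keratins was not tested.

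The genes with the most similar pattern were found by the root mean square distance between log2 values over the 6 libraries, each gene centred on its own mean. For Krt8 they were Mt2, 1700016C15Rik and Krt18, at distances of 0.217, 0.241 and 0.2504. Those of Krt20 were Cfi, Krt19 and Il1rn, at 0.200, 0.216 and 0.236. Vim was nearest to Wfdc1, Slc7a2 and Fos (0.0729, 0.0858 and 0.0881), and Nes to Nde1, Stx16 and Sfi1 (0.0452, 0.0514 and 0.0561). The distances are descriptions over 6 libraries and share the difference between the groups.

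**Figure D4:**
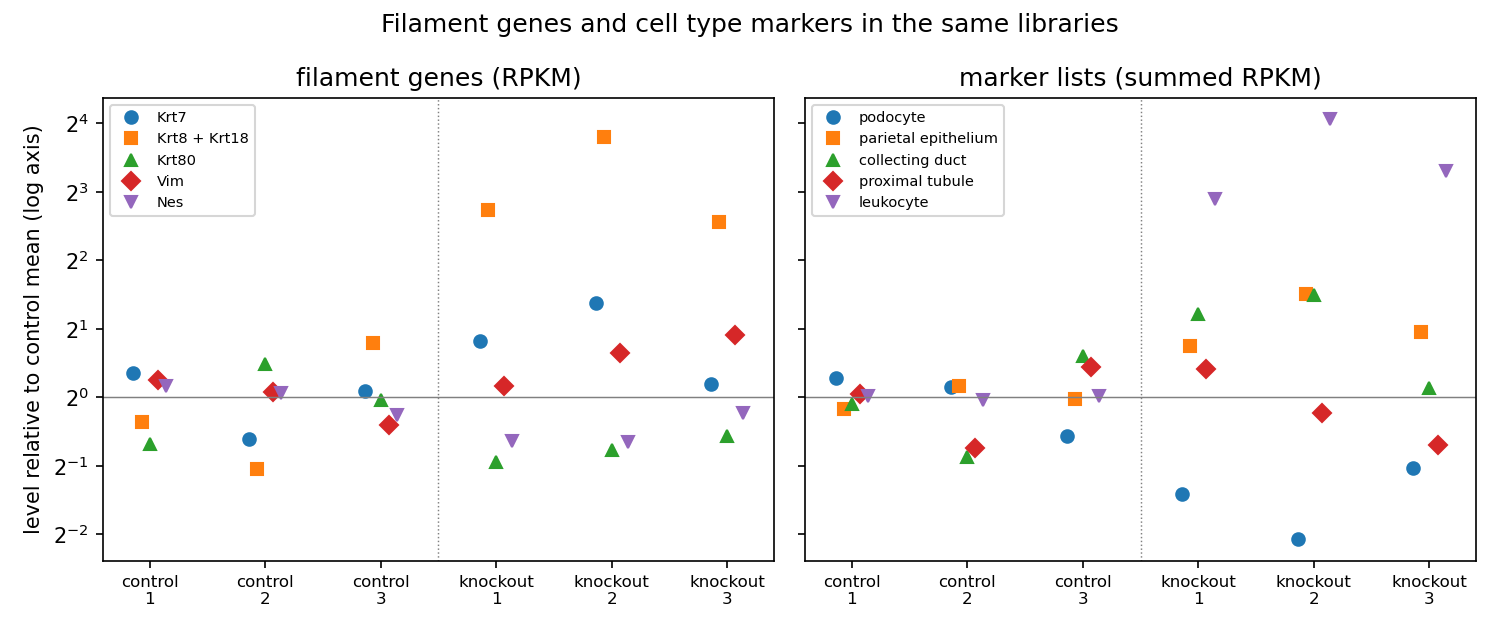
Levels relative to the control mean on a log axis, for the filament genes (left) and for summed marker lists (right), with 1 point per library. The Krt8 and Krt18 sum reaches 5.90 to 13.9 times the control mean in knockouts, the collecting duct sum 1.10 to 2.81 times, the proximal tubule sum 0.619 to 1.33 times and the podocyte sum 0.237 to 0.491 times.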

How the data were processed

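Glomerular RNA was measured by RNA-seq in 3 control and 3 knockout libraries. The deposited values are RPKM per gene, made by the authors; FastQC, STAR, featureCounts and edgeR with build mm10 are named per the submitters' processing notes, without roles or versions. Because counts were divided by length and depth, whole reads could be recovered, and they gave 38936993 to 58272424 counted reads a library. Rows with no gene symbol (27, dates) were left out.

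The members and lists were chosen with earlier results of these data known. Values were tested as log2(RPKM + 0.5) with limma 3.58.1 (trend) in R 4.3.3, on the 13912 genes averaging 0.5 RPKM or more, with Benjamini-Hochberg adjustment and a threshold of 0.05. The test was also tried on simulated data. These had the same spread beyond counting error set for all genes, so the trial does not give the error rate on these libraries. Ratios were compared by exact permutation (scipy 1.17.1), although no test of a ratio had been planned. Named genes were the members, other keratins passing the filter, the defining markers, the 4 genes with the smallest p in each list and the 3 nearest patterns; others are marked as chosen after their values were seen. Alternatives were other pseudocounts and filters, TMM, quantile, voom on recovered reads (chosen after seeing the data), a replicate block, and leaving out each library. Intervals on reads cover counting error only.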

Additional observations from a re-analysis of the deposited data

How the results depend on the processing

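Krt8, Krt18, Krt19 and Krt20 kept their direction and call in all 15 alternatives (adjusted p from limma 0.00913 to 0.0410, 0.00651 to 0.0333, 0.00383 to 0.0253 and 0.00186 to 0.0186). Krt7, Vim and Nes passed in none, and no member changed sign. The number of members lower was 0 to 1 when each library was left out. With every keratin row the control ratio of type I to type II was 0.0748, not 0.0373. Without a filter 1 other keratin was higher, Krt12, from 0, 0 and 0 reads in controls and only 4, 6 and 5 reads in knockouts. When each library was left out, the log2 change of Krt10 ranged from -0.17 to 0.063 and that of Lrp2 from -0.34 to 0.21. Krt10 turned to 0.035, 0.020 and 0.063 without control replicate 1, knockout replicate 1 and knockout replicate 3, and Lrp2 to 0.17 and 0.21 without control replicate 3 and knockout replicate 3. The higher desmosome and linker genes numbered 4 to 7 when each library was left out.

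The replicate numbers did not pair the libraries (correlations 0.175, -0.215 and -0.461; 1 of 6 matched its own number best). With a replicate block, 4 members and 4 desmosome and linker genes were higher. Then 4 podocyte genes were lower against 9, and no collecting duct gene was higher against 1; Tfcp2l1, Nphs1 and Cdh1 did not pass (adjusted p = 0.0764, 0.0522 and 0.0969). Over all genes tested, 811 were called against 1873. That count was 1191 with a filter at 2 RPKM and ranged from 598 (without knockout replicate 2) to 2114 (without knockout replicate 3) when each library was left out. The planned edgeR count test was not run, since the deposited values are RPKM; limma voom on recovered reads took its place. The causes of these shifts were not tested.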
